A study of Mus musculus with 16 samples.

Results

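The genes described here are those of the mouse glutathione and thioredoxin antioxidant systems: glutathione S-transferases, glutathione peroxidases, peroxiredoxins, thioredoxin reductases, sulfiredoxin, the enzymes that make and recycle glutathione, the quinone reductase Nqo1, and the regulator pair Nfe2l2 and Keap1. They were chosen by gene symbol. The symbols found 50 genes of the 20101 in the table, of which 42 passed a filter of at least 1 FPKM in at least 4 libraries. FPKM values scale the sequenced fragments of a gene to its length and to the library's total. RNA had been sequenced from epididymal white adipose tissue (eWAT), the abdominal fat pad beside the epididymis, of 16 mice aged 21 weeks, with 4 mice in each of 4 groups. The groups were WT mice on chow with 5% fat (chow WT), mice labelled KO on the same chow (chow KO), WT mice on a high-fat diet with 60% fat from 5 weeks of age (HFD WT) and mice labelled KO on that diet (HFD KO). KO stands for a sample label only: the titles say KO, other labels say knockdown of ApoA4, and the construct, the cells in which it acts, the strain and the sex are not stated in the labels.

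Apoa4 RNA went against the label. It was at most 0.29 FPKM in the 8 WT-labelled libraries, 1.96 to 5.96 FPKM in chow KO and 4.93 to 9.63 FPKM in HFD KO, so genotype is given below as WT-labelled or KO-labelled. Summed FPKM per library lay between 413167 and 468186, and read depth is unknown because FPKM keep no counts. The tissue label was borne out by the 20 adipocyte markers, of which 19 or 20 reached 1 FPKM in each library. Their sum fell from 37188 to 39834 FPKM in chow WT and 20689 to 46174 FPKM in chow KO to 7896 to 24863 FPKM in HFD WT and 4972 to 18624 FPKM in HFD KO. The sum of the 19 macrophage markers was 1104 to 1404 FPKM on chow, 3195 to 14205 FPKM in HFD WT and 3846 to 11975 FPKM in HFD KO. Not every marker moved the same way. Of the adipocyte markers, 11 fell and 2 rose in WT-labelled mice, and 11 fell and 0 rose in KO-labelled mice (limma, adjusted p under 0.05). Of the macrophage markers, 17 and 16 rose and 0 fell. Over all tested genes, 24.6% rose and 17.2% fell in WT-labelled mice, and 23.5% and 15.3% in KO-labelled mice. The part of these markers in the diet results was not tested. In whole tissue, fewer cells of a type and less RNA per cell cannot be told apart. Chow KO replicate 2, HFD KO replicate 4 and, far less, HFD KO replicate 2 held RNA of the epididymis. The 21 epididymis and testis markers summed to 11819.9, 5920.5 and 342 FPKM there, and to no more than 47.3 FPKM in any of the 13 others. The split is one of amount: 6 and 5 markers reached 1 FPKM in chow WT replicates 1 and 2, against 4 in HFD KO replicate 2. Counts that rest on these libraries are given with and without them.

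Glutathione is a small peptide that cells use as a reducing agent. Peroxidases spend it on peroxides, and S-transferases join it to reactive compounds such as lipid aldehydes, which arise where fat is oxidized. The thioredoxin system works beside it: peroxiredoxins reduce peroxides, thioredoxin restores them, and thioredoxin reductase restores thioredoxin with NADPH. The transcription factor NRF2, encoded by Nfe2l2, switches on many of these genes through the antioxidant response element, and KEAP1 marks NRF2 for destruction until oxidants or electrophiles modify it.

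With high-fat feeding many glutathione S-transferases fell, led by Gsta3 and the theta class, and so did the membrane transferases Mgst1 and Mgst3, under both genotype labels. Srxn1 and Txnrd1, of the thioredoxin cycle, rose under both labels. In WT-labelled mice 3 of the 42 tested members rose and 16 fell, where 24.6% of all 12667 tested genes rose and 17.2% fell (limma, Benjamini-Hochberg adjusted p under 0.05). In KO-labelled mice 7 rose and 11 fell, against 23.5% and 15.3% of all genes. The share of members that rose in WT-labelled mice was thus under that of all genes and the share that fell over it. The median log2 difference of the members, HFD minus chow on the log2(FPKM + 1) scale, was -0.61 in WT-labelled and -0.33 in KO-labelled mice, while the median of all tested genes was 0.063 and 0.082. Differences given below for single genes are log2 differences of this kind. The balance of calls over all genes depended on the scaling: 58.8% of the WT-labelled and 60.5% of the KO-labelled calls were higher, but 45.8% and 42.3% with quantile normalization, where 2 members rose and 17 fell in WT-labelled and 5 rose and 12 fell in KO-labelled mice. With median-of-ratios scaling Prdx1 in WT-labelled mice (adjusted p = 0.0616) and Gclm (0.0633) and Gsto1 (0.0573) in KO-labelled mice no longer passed. Both comparisons called Srxn1 and Txnrd1 as higher, which is 66.7% of the WT-labelled and 28.6% of the KO-labelled calls. They shared 10 lower genes, 62.5% and 90.9% of the calls: Gsta3, Gstk1, Gsto2, Gstt1, Gstt2, Gstt3, Mgst1, Mgst3, Prdx3 and Txnrd3. The sign was the same under both labels for 39 of 42 members, all but Gpx1, Gsr and Nqo1. Without the 3 libraries with epididymal RNA, which leaves HFD KO replicates 1 and 3 as the HFD KO group, 4 rose and 20 fell in WT-labelled and 10 rose and 22 fell in KO-labelled mice. Over all genes the same step raised the share called from 41.9% to 51.5% in WT-labelled and from 38.9% to 50.9% in KO-labelled mice, where the share of members went from 42.9% to 76.2%. Leaving out HFD KO replicate 4 alone raised the KO-labelled count from 18 to 28, or 66.7% of the members, against 44.2% of all genes.

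**Figure D1:**
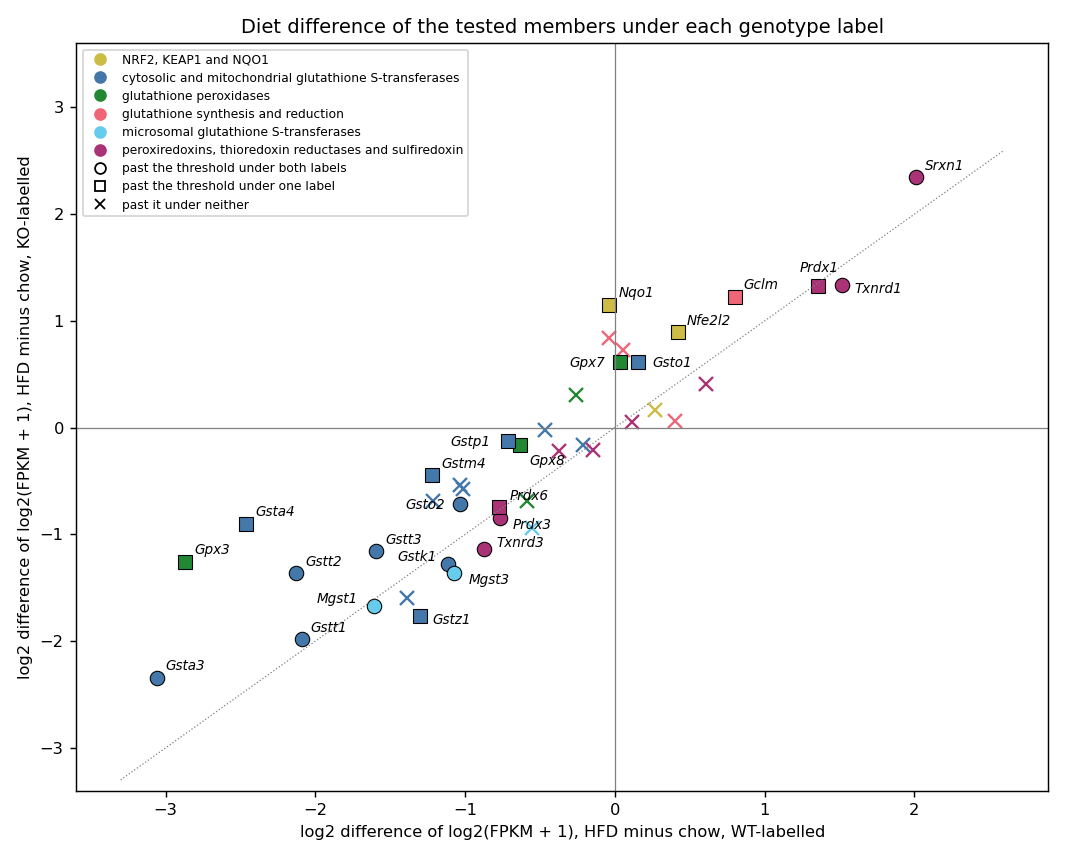
Difference between high-fat diet and chow of each of the 42 tested genes in WT-labelled mice (horizontal axis) and KO-labelled mice (vertical axis), as log2 differences of group means of log2(FPKM + 1), coloured by class. Circles passed the threshold under both labels, squares under 1 and crosses under neither, and the dotted line marks equal differences: Srxn1 stands highest on both axes (2.01 and 2.34) and Gsta3 lowest (-3.06 and -2.34).

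The level of the members sets the scale of these changes. In chow WT the most abundant were Gpx3 (1252 ± 178 FPKM, SD, n = 4), the secreted plasma glutathione peroxidase, Mgst1 (1141 ± 70.8 FPKM), a transferase of microsomal and mitochondrial membranes, and Gpx1 (890.03 ± 48.1 FPKM), the cytosolic peroxidase. With Gpx4 (586 ± 39.3 FPKM) and Gstm1 (420.2 ± 21.2 FPKM) these 5 genes made up 63.2% of the members' FPKM, and 13 members exceeded 100 FPKM. All members together took 1.46% to 1.52% of a chow WT library's FPKM and 1.32% to 1.59% of a chow KO library's. On HFD the share was 0.820% to 1.20% for WT-labelled and 0.937% to 1.82% for KO-labelled libraries. The upper end of HFD KO is HFD KO replicate 4. The chow WT libraries were the most alike: the median over the tested members of the highest value divided by the lowest was 1.21 there. It was 1.79 for chow KO libraries, and on HFD 2.11 under the WT and 2.43 under the KO label. Gsta1, Gsta2, Gstm3, Gstp3, Gstt4, Gpx2, Gpx6 and Prdx6b lay under the filter and stayed at or under 5.97 FPKM in every library.

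Of NRF2, KEAP1 and NQO1, no gene passed in WT-labelled mice (limma, 1 at an unadjusted p under 0.05) and 2 rose in KO-labelled mice, with medians of 0.27 and 0.89. Over all tested genes 24.6% rose in WT-labelled and 23.5% in KO-labelled mice, and 3 genes are too few to set beside those shares. NRF2 activity is set mostly by the stability of its protein, which RNA does not measure. Nfe2l2 stood at 43.2, 36.4, 39.7 and 32.9 FPKM in chow WT, 43.02, 41.3, 24.4 and 22.2 FPKM in chow KO, 33.2, 65.8, 68.01 and 45.4 FPKM in HFD WT and 69.2, 60.4, 69.6 and 41.95 FPKM in HFD KO. The HFD libraries ran higher than most of chow but overlapped them under both labels. The diet difference was 0.42 (SE 0.26, adjusted p = 0.203) in WT-labelled mice, short of the threshold, and 0.89 (SE 0.26, adjusted p = 0.0131) in KO-labelled mice, a rise. Keap1, which encodes the inhibitor of NRF2, stood at 15.8, 12.6, 13.6 and 12.7 FPKM in chow WT, 18.3, 20.6, 13.7 and 15.9 FPKM in chow KO, 14.7, 17, 18.4 and 16.6 FPKM in HFD WT and 18.9, 18.1, 19.1 and 20.7 FPKM in HFD KO. Its groups overlapped, and its diet difference was 0.27 (SE 0.12, adjusted p = 0.0896) in WT-labelled and 0.17 (SE 0.12, adjusted p = 0.283) in KO-labelled mice. With a constant sum per library the WT-labelled difference was 0.35 and passed the threshold (adjusted p = 0.0274).

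Nqo1, a quinone reductase and a classic NRF2 target, was scarce. It stood at 2.92, 2.28, 2.07 and 2.32 FPKM in chow WT, 2.87, 4.16, 2.95 and 1.77 FPKM in chow KO, 1.48, 1.04, 6.71 and 2.04 FPKM in HFD WT and 7.73, 4.21, 5.65 and 16.6 FPKM in HFD KO. All HFD KO libraries lay above all chow KO libraries, while in HFD WT replicate 3 was high and the other 3 lay below the chow WT range. Nqo1 rose in KO-labelled mice, by 1.15 (SE 0.39, adjusted p = 0.0303), and differed by -0.036 (SE 0.39, adjusted p = 0.951) in WT-labelled mice, a sign that turned without chow WT replicate 1, HFD WT replicate 1, 2 or 4 or with a constant sum. The rise was lost without 1 of chow KO replicates 1, 3 and 4 and HFD KO replicates 1 and 4 (adjusted p from 0.0565 to 0.0879), and it was 0.80 without HFD KO replicate 4, the library with the most Nqo1 and with epididymal RNA. Without the 2 libraries with the most such RNA it was 0.95 (adjusted p = 0.0528).

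Because NRF2 is held to switch on many of the members, promoters were searched for members that rose and for those that did not. RefSeq promoter windows for GRCm38.p6, from 250 bases before to 50 after a transcript start, were on hand for 44 of the 50 genes. Windows for Gclc, Gsr, Gstt2, Gsta4, Prdx6 and Prdx6b were not analysed here. Both strands were searched for TGACNNNGC, the core of the antioxidant response element. It was found in 9 of the 44 genes, Gclm, Gsta3, Gstm5, Gstm7, Mgst1, Nfe2l2, Prdx1, Srxn1 and Txnrd1, and in 13.99% of all 27025 genes with a window. The same core followed by an A, a longer form that overlaps it, was found in 2 of the 44, Gsta3 and Txnrd1, and in 3.45% of all genes. The 9 with the core include 4 genes that rose under at least 1 label beside Nfe2l2, namely Gclm, Prdx1, Srxn1 and Txnrd1. They also include Gsta3 and Mgst1, which fell under both labels, and Gstm5 and Gstm7, which passed under neither. Nqo1, Gpx7 and Gsto1, which rose in KO-labelled mice, had windows without the core. A match is a run of letters, not a measured binding site, and no match says nothing of NRF2. The stretches around the match follow for 4 genes at the higher end and 2 that fell, read along the gene's own strand, with the 9 matched bases in capitals.

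Gclm, chr3:122245397-122245457, plus strand: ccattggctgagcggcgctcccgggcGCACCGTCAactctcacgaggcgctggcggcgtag
Prdx1, chr4:116685440-116685500, plus strand: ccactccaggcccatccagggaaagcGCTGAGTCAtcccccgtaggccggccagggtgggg
Txnrd1, chr10:82859088-82859148, plus strand: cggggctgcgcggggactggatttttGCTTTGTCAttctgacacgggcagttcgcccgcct
Nfe2l2, chr2:75704869-75704913, minus strand: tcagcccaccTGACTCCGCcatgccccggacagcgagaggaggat
Gsta3, chr1:21240438-21240498, plus strand: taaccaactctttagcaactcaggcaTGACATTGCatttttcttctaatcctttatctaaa
Mgst1, chr6:138140445-138140505, plus strand: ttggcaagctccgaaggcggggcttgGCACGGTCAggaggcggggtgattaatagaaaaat

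In Gclm, Prdx1, Txnrd1 and Mgst1 the motif lies on the opposite strand, so it reads as its reverse complement. In Nfe2l2 and Gsta3 it lies on the gene's own strand. The Srxn1 match, GCTAGGTCA, lies 28 bases after the transcript start and is given without its surroundings. The Txnrd1 stretch precedes a start inside the gene's full RefSeq span.

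Of the 4 enzymes that make and recycle glutathione, Gclm rose in KO-labelled mice, no member passed in WT-labelled mice (limma, 0 at an unadjusted p under 0.05), and the median difference was 0.23 in WT-labelled and 0.78 in KO-labelled mice. In KO-labelled mice 23.5% of all tested genes rose, so 1 rise in 4 lay near the share of all genes. Gclc and Gclm encode the catalytic and modifier subunits of glutamate-cysteine ligase, the rate-limiting step of glutathione synthesis. Gclm (chr3:122245487-122267215) stood at 14.5, 14.3, 12.8 and 15.5 FPKM in chow WT, 15.4, 38.7, 15.6 and 15.1 FPKM in chow KO, 17.4, 14.4, 81.6 and 20.2 FPKM in HFD WT and 73.9, 31.1, 65.1 and 31.8 FPKM in HFD KO. HFD WT replicate 3 and HFD KO replicates 1 and 3 stood above all others, and chow KO replicate 2 was high for its group. The diet difference of Gclm was 0.80 (SE 0.46, adjusted p = 0.178) in WT-labelled and 1.23 (SE 0.46, adjusted p = 0.0468) in KO-labelled mice. The rise was lost without any 1 chow WT library, chow KO replicate 1, 3 or 4, HFD WT replicate 4, HFD KO replicate 1 or HFD KO replicate 3 (adjusted p from 0.0552 to 0.135). It was also lost with a replicate block (adjusted p = 0.0600), and was 2.11 (adjusted p = 0.00481) without the 3 libraries with epididymal RNA. That fit keeps HFD KO replicates 1 and 3, the highest of HFD KO for Gclm, and leaves out chow KO replicate 2, the highest of chow KO. The same holds below for Gclc and Gsr, so this fit is no cleaner estimate of these differences. A gene on the opposite strand, Gm17494, overlaps exons of Gclm, and whether strand was used in counting is not stated.

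Gclc stood at 9, 9.05, 9.17 and 8.86 FPKM in chow WT, 10.8, 17.7, 9.56 and 8.24 FPKM in chow KO, 6.89, 6.56, 19.6 and 8.57 FPKM in HFD WT and 23.8, 14.4, 24.4 and 15.5 FPKM in HFD KO. Its order among HFD libraries resembled that of Gclm, with the same 3 libraries on top. The difference was 0.055 (SE 0.29, adjusted p = 0.896) in WT-labelled mice and 0.72 (SE 0.29, adjusted p = 0.0612) in KO-labelled mice. The KO-labelled difference passed the threshold without chow KO replicate 2 (0.93, adjusted p = 0.0177), HFD WT replicate 3 (adjusted p = 0.0149), HFD KO replicate 2 (adjusted p = 0.0466) or HFD KO replicate 4 (adjusted p = 0.0498), and it was 1.26 (adjusted p = 0.00653) without the 3 libraries with epididymal RNA. The sign in WT-labelled mice turned without HFD WT replicate 3 (-0.27) and under median-of-ratios (-0.017) or quantile scaling (-0.074). Gss, which adds glycine in the last step of synthesis, stood at 7.58, 8.41, 8.37 and 8.77 FPKM in chow WT, 6.93, 10.4, 9.23 and 9.84 FPKM in chow KO, 10.9, 8.56, 18.6 and 8.95 FPKM in HFD WT and 11.3, 8.69, 9.10 and 8.90 FPKM in HFD KO. HFD WT replicate 3 was again the highest, and the groups overlapped. Gss differed by 0.40 (SE 0.19, adjusted p = 0.107) and 0.064 (SE 0.19, adjusted p = 0.817), and the second sign turned without chow KO replicate 1, without HFD KO replicate 1 and with 2 other scalings. Exons of Acss2, read from the opposite strand, overlap those of Gss.

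Gsr, glutathione reductase, returns oxidized glutathione to its reduced form with NADPH. It stood at 26.6, 26.9, 27.6 and 26.4 FPKM in chow WT, 24.8, 33.5, 26.3 and 22.3 FPKM in chow KO, 19.03, 16.96, 67.4 and 21.1 FPKM in HFD WT and 81.7, 28.6, 76.2 and 29.9 FPKM in HFD KO. In HFD WT, 3 libraries were below every chow WT library and replicate 3 far above them. In HFD KO, replicates 1 and 3 were high and replicates 2 and 4 near the chow values. The differences of -0.038 (SE 0.40, adjusted p = 0.949) and 0.84 (SE 0.40, adjusted p = 0.106) did not pass. The KO-labelled one passed without HFD WT replicate 3 (adjusted p = 0.0330) or HFD KO replicate 4 (1.06, adjusted p = 0.0492), and without the 3 libraries with epididymal RNA (1.65, adjusted p = 0.00602). In WT-labelled mice the sign turned without HFD WT replicate 1, 2 or 4.

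Of the 10 tested members of the thioredoxin cycle, 3 rose and 3 fell in WT-labelled mice, and 2 rose and 2 fell in KO-labelled mice. Over all genes 24.6% and 23.5% rose, and 17.2% and 15.3% fell. The share of these members that rose lay near that of all genes, and the share that fell somewhat above it. The differences had medians of -0.016 and -0.078. Srxn1, sulfiredoxin, repairs peroxiredoxins that peroxide has over-oxidized. Srxn1 (Entrez gene 76650, chr2:152105524-152111376 on GRCm38.p6) stood at 8.95, 8.18, 7.27 and 8.54 FPKM in chow WT, 11.6, 12.8, 9.07 and 9.16 FPKM in chow KO, 16.8, 29.3, 116 and 29.1 FPKM in HFD WT and 86.3, 41.7, 67.8 and 45.2 FPKM in HFD KO. Every HFD library lay above every chow library. The rise was 2.01 (SE 0.41, adjusted p = 0.00161) in WT-labelled and 2.34 (SE 0.41, adjusted p = 0.000848) in KO-labelled mice. Txnrd1, the cytosolic thioredoxin reductase, a selenoprotein (Entrez gene 50493, chr10:82833951-82897724), stood at 14.2, 15.3, 13.9 and 14.6 FPKM in chow WT, 21.9, 30.6, 18.5 and 16.4 FPKM in chow KO, 24.6, 38.6, 111 and 32.96 FPKM in HFD WT and 83.99, 41.9, 72.7 and 35.8 FPKM in HFD KO. HFD and chow did not overlap under either label, though chow KO replicate 2 lay above HFD WT replicate 1. Txnrd1 rose by 1.52 (SE 0.38, adjusted p = 0.00518) in WT-labelled and 1.33 (SE 0.38, adjusted p = 0.0120) in KO-labelled mice.

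Prdx1, the abundant cytosolic peroxiredoxin, ranged widely within HFD. It stood at 192, 207, 217 and 202 FPKM in chow WT, 202, 241, 252 and 197 FPKM in chow KO, 249, 455, 1799 and 370.3 FPKM in HFD WT and 1149, 465, 768 and 234 FPKM in HFD KO. All HFD WT libraries lay above chow WT, and HFD KO replicate 4 lay within the chow KO range. Prdx1 rose in WT-labelled mice, by 1.36 (SE 0.51, adjusted p = 0.0459), and differed by 1.33 (SE 0.51, adjusted p = 0.0534) in KO-labelled mice, just short of the threshold. The WT-labelled call was lost without any 1 chow library, HFD WT replicate 2 or 3, or HFD KO replicate 2 or 3 (adjusted p from 0.0501 to 0.150), and without HFD WT replicate 3 the difference was 0.76. The KO-labelled difference passed without HFD WT replicate 1 (adjusted p = 0.0383), HFD WT replicate 3 (adjusted p = 0.0107) or HFD KO replicate 4 (1.74, adjusted p = 0.0108). With a replicate block it passed as well (adjusted p = 0.0458), and without the 3 libraries with epididymal RNA it was 2.12 (adjusted p = 0.00988). That last fit keeps only HFD KO replicates 1 and 3, the highest of HFD KO for Prdx1.

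Prdx3, the mitochondrial peroxiredoxin, went the other way. It stood at 91.2, 89.4, 96.02 and 99.2 FPKM in chow WT, 90.8, 60.1, 105 and 112 FPKM in chow KO, 58.2, 52.2, 41.4 and 71.3 FPKM in HFD WT and 39.6, 48.6, 43.4 and 71.2 FPKM in HFD KO. HFD WT lay wholly below chow WT, and in HFD KO only replicate 4 rose above the lowest chow KO library. Prdx3 fell by 0.77 (SE 0.21, adjusted p = 0.0103) on the log2 scale in WT-labelled and 0.85 (SE 0.21, adjusted p = 0.00660) in KO-labelled mice, where the difference was -1.28 without the 3 libraries with epididymal RNA. Txnrd2, the mitochondrial thioredoxin reductase, stood at 8.16, 9.01, 8.57 and 9.18 FPKM in chow WT, 7.80, 6.76, 9.67 and 10.5 FPKM in chow KO, 7.77, 7.54, 6.34 and 9.77 FPKM in HFD WT and 6.56, 7.37, 6.47 and 9.01 FPKM in HFD KO. Its groups overlapped, and it differed by -0.15 (SE 0.15, adjusted p = 0.440) and -0.21 (SE 0.15, adjusted p = 0.281). Without the 3 libraries with epididymal RNA the KO-labelled difference was -0.45 and passed (adjusted p = 0.0339).

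Txnrd3 encodes a reductase that serves both thioredoxin and glutathione. It stood at 7.30, 6.84, 6.93 and 7.79 FPKM in chow WT, 9.32, 9.83, 7.40 and 7.06 FPKM in chow KO, 4.45, 2.99, 2.57 and 4.19 FPKM in HFD WT and 2.21, 3.48, 3.13 and 4.45 FPKM in HFD KO. No HFD library reached the chow range of its own label, and Txnrd3 fell by 0.87 (SE 0.17, adjusted p = 0.00124) and 1.14 (SE 0.17, adjusted p = 0.000313) on the log2 scale. Prdx6, a peroxiredoxin that also reduces phospholipid peroxides, stood at 158, 199, 166 and 162 FPKM in chow WT, 114, 149, 238 and 166 FPKM in chow KO, 144, 76.5, 57.9 and 151 FPKM in HFD WT and 75.6, 91.5, 92.4 and 131 FPKM in HFD KO. HFD WT did not overlap chow WT, with replicates 2 and 3 lowest. The fall in WT-labelled mice was 0.77 (SE 0.29, adjusted p = 0.0435), and the difference in KO-labelled mice was -0.75 (SE 0.29, adjusted p = 0.0539). Neither is firm: the WT-labelled call was lost without any 1 chow WT library, chow KO replicate 4, HFD WT replicate 2 or 3 or HFD KO replicate 2 or 3 (adjusted p from 0.0516 to 0.154) and with a replicate block (adjusted p = 0.0593). The KO-labelled difference passed without chow KO replicate 1, HFD WT replicate 1, 3 or 4 or HFD KO replicate 4 (adjusted p from 0.0281 to 0.0433). Prdx2, Prdx4 and Prdx5 did not pass in either diet comparison, with differences between -0.37 (Prdx5, WT-labelled) and 0.61 (Prdx4, an endoplasmic reticulum peroxiredoxin, WT-labelled, adjusted p = 0.0540).

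**Figure D2:**
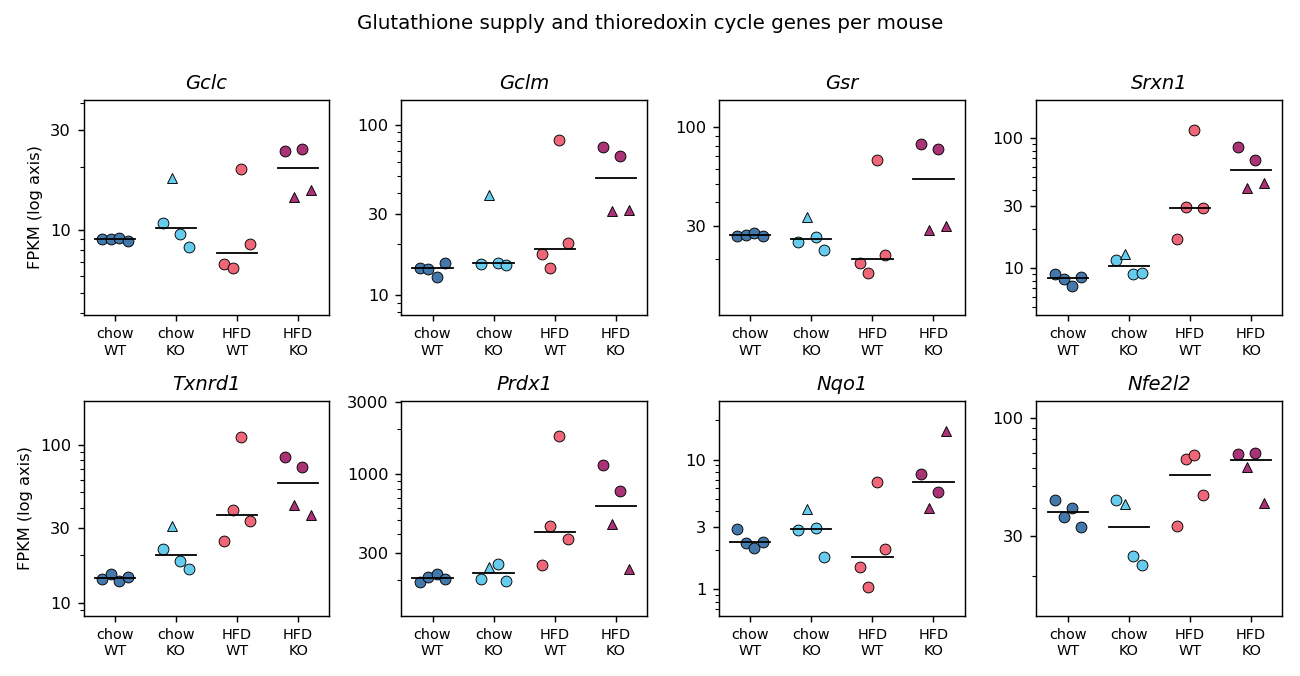
FPKM (log axis) of 8 genes of glutathione supply, the thioredoxin cycle and NRF2 regulation in each of the 16 mice, in groups by diet and genotype label and left to right by replicate number, with a line at the median of the 4 libraries and triangles for the 3 libraries with epididymal RNA. For Srxn1 every HFD library lies above the chow libraries, and the third HFD WT library is the highest of its group in all 8 panels, as with Prdx1 at 1799 FPKM.

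Glutathione S-transferases of the cytosol and mitochondria, the largest class, had the most falls by number, though not by share. Of the 17 tested, 9 fell in WT-labelled mice, and 7 fell and 1 rose in KO-labelled mice, with medians of -1.22 and -0.72. Of all tested genes, 17.2% fell in WT-labelled and 15.3% in KO-labelled mice. Without the 3 libraries with epididymal RNA the KO-labelled count of falls was 14, where 20.4% of all tested genes fell. Gsta3, an alpha class transferase (Entrez gene 14859, chr1:21240565-21265575), stood at 156, 109.8, 117 and 104 FPKM in chow WT, 78.5, 58.7, 206 and 204 FPKM in chow KO, 24.6, 4.84, 14.9 and 17.8 FPKM in HFD WT and 9.68, 20.8, 15.5 and 78.8 FPKM in HFD KO. HFD WT and chow WT were far apart, and in HFD KO only replicate 4 entered the chow KO range. The fall was 3.06 (SE 0.58, adjusted p = 0.000996) on the log2 scale in WT-labelled and 2.34 (SE 0.58, adjusted p = 0.00621) in KO-labelled mice, the deepest of any member under both labels.

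Gsta4 conjugates 4-hydroxynonenal, an aldehyde of lipid peroxidation (Entrez gene 14860, chr9:78191966-78209349). It stood at 26.3, 19.4, 22.8 and 20.2 FPKM in chow WT, 22.02, 35.97, 38.8 and 34.7 FPKM in chow KO, 3.40, 3.43, 2.18 and 3.92 FPKM in HFD WT and 6.95, 144, 5.59 and 12.2 FPKM in HFD KO. HFD WT lay wholly below chow WT, as did HFD KO below chow KO but for replicate 2, the highest of all 16 libraries. Gsta4 fell by 2.46 (SE 0.67, adjusted p = 0.00949) in WT-labelled mice and differed by -0.90 (SE 0.67, adjusted p = 0.307) in KO-labelled mice. Without HFD KO replicate 2 the latter was -1.91 (adjusted p = 0.000210), past the threshold. That library held few epididymal markers, 4 of 21 at 1 FPKM or more, but its 12 mesothelial markers summed to 473 FPKM, the highest of all 16 libraries. Chow KO replicate 2 (396 FPKM) and HFD KO replicate 4 (223 FPKM) followed, and the other 13 summed to 39.1 to 166 FPKM. The part of mesothelial RNA in its Gsta4 level was not tested.

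The theta class fell together. Gstt1, Gstt2 and Gstt3 lie beside one another on chromosome 10, between 75774117 and 75837419. Gstt1 stood at 78.99, 72.03, 65.7 and 68.4 FPKM in chow WT, 85.8, 75.02, 70.8 and 56.8 FPKM in chow KO, 21.98, 10.9, 12.7 and 20.9 FPKM in HFD WT and 13.3, 31.4, 11.2 and 19.1 FPKM in HFD KO. Gstt2 stood at 27.8, 27, 27.2 and 31.2 FPKM in chow WT, 28.7, 23.9, 13.2 and 21.5 FPKM in chow KO, 5.91, 5.52, 4.10 and 7.78 FPKM in HFD WT and 5.72, 9.58, 4.86 and 12.1 FPKM in HFD KO. Gstt3 stood at 10.9, 11, 10.2 and 10.6 FPKM in chow WT, 17.7, 40.9, 7.54 and 8.22 FPKM in chow KO, 2.37, 2.95, 2.41 and 3.93 FPKM in HFD WT and 4.19, 9.29, 3.02 and 10.7 FPKM in HFD KO. In all 3, HFD WT lay wholly below chow WT, and for Gstt1 and Gstt2 so did HFD KO below chow KO. The falls in WT-labelled mice were 2.09 (SE 0.27, adjusted p = 7.54e-05) for Gstt1, 2.13 (SE 0.26, adjusted p = 4.58e-05) for Gstt2 and 1.59 (SE 0.43, adjusted p = 0.00846) for Gstt3. In KO-labelled mice they were 1.98 (SE 0.27, adjusted p = 0.000163) for Gstt1, 1.36 (SE 0.26, adjusted p = 0.00129) for Gstt2 and 1.15 (SE 0.43, adjusted p = 0.0446) for Gstt3. The last call was lost without any 1 chow WT library, chow KO replicate 1 or 2, HFD WT replicate 2, 3 or 4 or HFD KO replicate 1 or 3 (adjusted p from 0.0516 to 0.142), and without chow KO replicate 2, where Gstt3 was highest, the difference was -0.68. Gstt3 shares 23.9% of its 100-base windows with the gene model Gm20441, so its value is uncertain.

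Gstk1, the kappa class transferase of mitochondria and peroxisomes, stood at 42.4, 43.1, 44.3 and 39.02 FPKM in chow WT, 35.2, 24.5, 51.99 and 46.6 FPKM in chow KO, 31.9, 15.8, 13.3 and 19.1 FPKM in HFD WT and 9.60, 19.2, 14.6 and 19.1 FPKM in HFD KO. Chow and HFD did not overlap under either label. Gstk1 fell by 1.11 (SE 0.27, adjusted p = 0.00484) and 1.28 (SE 0.27, adjusted p = 0.00247). Gstz1, the zeta class enzyme of tyrosine breakdown, stood at 393, 362, 358 and 329 FPKM in chow WT, 399, 240.4, 431 and 299 FPKM in chow KO, 348, 97.3, 58.4 and 222 FPKM in HFD WT and 31.5, 112, 138 and 181 FPKM in HFD KO. It ranged widely in HFD, with HFD WT replicate 1 inside the chow range and HFD KO replicate 1 lowest of all. Gstz1 differed by -1.30 (SE 0.53, adjusted p = 0.0592) in WT-labelled mice and fell by 1.77 (SE 0.53, adjusted p = 0.0161) in KO-labelled mice. The WT-labelled difference passed without HFD WT replicate 1 (-1.72, adjusted p = 0.0130), HFD KO replicate 1 (adjusted p = 0.0217) or HFD KO replicate 4 (adjusted p = 0.0491), and the KO-labelled fall was lost without HFD KO replicate 1 (-1.24, adjusted p = 0.0528). Gstz1 also overlaps exons of Pomt2 on the opposite strand.

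Gstp1, the pi class transferase, stood at 269.9, 223, 229.8 and 235 FPKM in chow WT, 218, 216, 239 and 294 FPKM in chow KO, 140.1, 115, 194 and 142 FPKM in HFD WT and 239.5, 175, 185 and 303 FPKM in HFD KO. HFD WT lay below chow WT, while HFD KO and chow KO overlapped. Gstp1 fell by 0.72 (SE 0.19, adjusted p = 0.00756) in WT-labelled mice and differed by -0.12 (SE 0.19, adjusted p = 0.641) in KO-labelled mice. It shares 52.8% of its 100-base windows with its neighbour Gstp2 and a pseudogene, so reads may have been divided between them, and Gstp2 differed by -0.21 and -0.16. Gsto2, an omega class transferase, was at most 2.20 FPKM and fell by 1.04 (SE 0.21, adjusted p = 0.00158) and 0.72 (SE 0.21, adjusted p = 0.0159). Its neighbour Gsto1, a thioltransferase, stood at 68.3, 88.9, 74.04 and 82.8 FPKM in chow WT, 69.4, 46.7, 72.4 and 64.8 FPKM in chow KO, 103, 69.9, 82.5 and 97.1 FPKM in HFD WT and 92.9, 127, 89.5 and 81.8 FPKM in HFD KO. HFD KO lay above chow KO, and the WT-labelled groups overlapped. Gsto1 was the 1 transferase that rose, by 0.62 (SE 0.17, adjusted p = 0.0116) in KO-labelled mice, against 0.16 (SE 0.17, adjusted p = 0.494) in WT-labelled mice. The rise was 0.40 and no longer passed without the 3 libraries with epididymal RNA (adjusted p = 0.0645).

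Microsomal transferases are a separate family of membrane proteins. Of the 3, Mgst1 and Mgst3 fell under both labels, with class medians of -1.07 and -1.36. Over all tested genes 17.2% fell in WT-labelled and 15.3% in KO-labelled mice. Mgst1 (Entrez gene 56615, chr6:138140527-138156755) stood at 1122, 1122, 1079 and 1243 FPKM in chow WT, 1170.02, 554, 1035 and 1015 FPKM in chow KO, 596, 257, 272 and 467 FPKM in HFD WT and 221, 283, 289.5 and 358 FPKM in HFD KO. HFD lay below chow under both labels, though chow KO replicate 2, at 554 FPKM, was below HFD WT replicate 1. Mgst1 fell by 1.61 (SE 0.28, adjusted p = 0.000543) and 1.67 (SE 0.28, adjusted p = 0.000608). Mgst3 stood at 227, 237, 236 and 229 FPKM in chow WT, 273, 172, 203 and 218 FPKM in chow KO, 172, 86.5, 70.6 and 139 FPKM in HFD WT and 48.7, 89.96, 71.4 and 147 FPKM in HFD KO. It did not overlap between diets under either label, and it fell by 1.07 (SE 0.30, adjusted p = 0.0116) and 1.36 (SE 0.30, adjusted p = 0.00327). Mgst2, which also makes leukotriene C4, differed by -0.55 (SE 0.55, adjusted p = 0.441) and -0.94 (SE 0.55, adjusted p = 0.189).

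**Figure D3:**
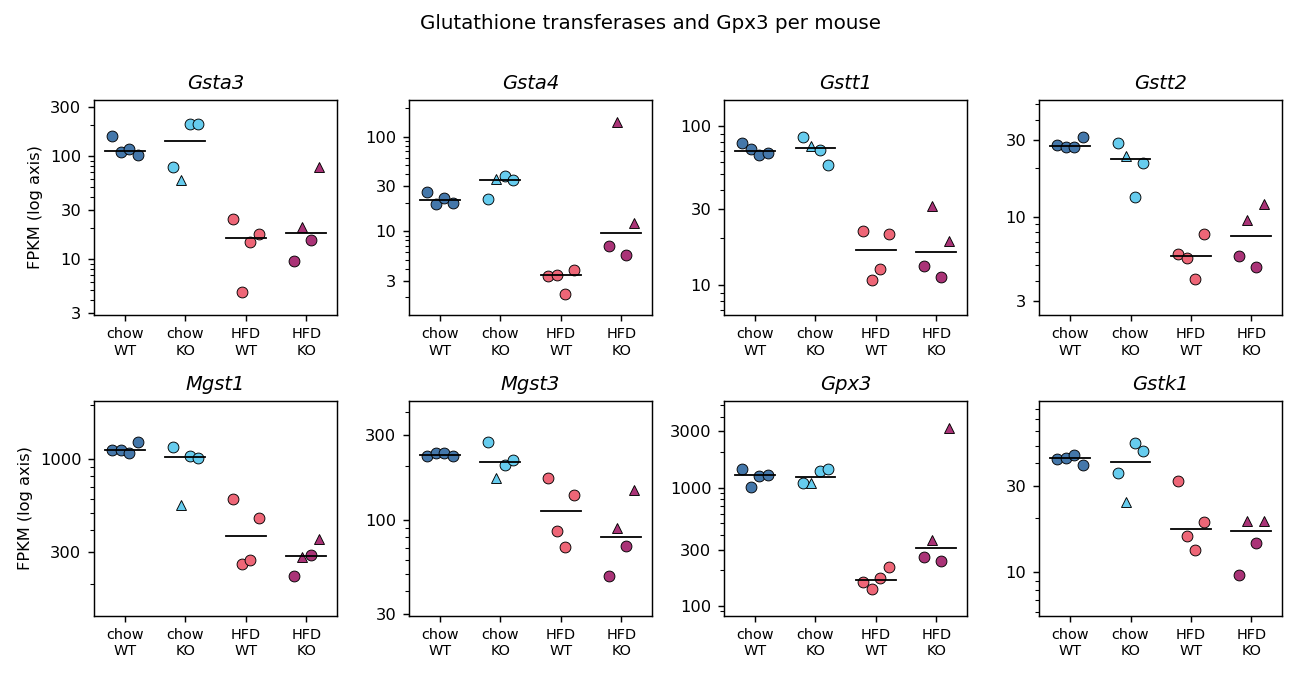
FPKM (log axis) of 7 transferases and Gpx3 in each of the 16 mice, in groups by diet and genotype label and left to right by replicate number, with a line at the median of the 4 libraries and triangles for the 3 libraries with epididymal RNA. All 8 genes were lower in each HFD WT library than in any chow WT library, and single HFD KO libraries stand apart for Gsta4 (144 FPKM) and Gpx3 (3187 FPKM).

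Glutathione peroxidases differed from one another. Of the 5 tested, Gpx3 and Gpx8 fell in WT-labelled mice and Gpx7 rose in KO-labelled mice, with medians of -0.58 and -0.16. Over all tested genes 17.2% fell in WT-labelled and 23.5% rose in KO-labelled mice, so 1 rise in 5 lay near the share of all genes. Gpx3 (Entrez gene 14778, chr11:54902854-54910387) stood at 1449, 1017, 1263 and 1279.99 FPKM in chow WT, 1090.5, 1088, 1390.2 and 1437 FPKM in chow KO, 161, 138, 172 and 213 FPKM in HFD WT and 259, 364, 242 and 3187 FPKM in HFD KO. All HFD libraries but 1 were below every chow library, and HFD KO replicate 4 was above them all. Gpx3 fell by 2.87 (SE 0.58, adjusted p = 0.00148) in WT-labelled mice, from 1252 ± 178 FPKM to 171 ± 31.1 FPKM (SD, n = 4). In KO-labelled mice it differed by -1.25 (SE 0.58, adjusted p = 0.101), and by -2.13 without HFD KO replicate 4 (adjusted p = 1.40e-05), which is past the threshold. That library held 5920 FPKM of epididymis and testis markers, and their part in its Gpx3 level was not tested.

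Gpx4 reduces peroxides within phospholipids and so guards against ferroptosis. It stood at 623, 605, 585 and 532 FPKM in chow WT, 458, 354, 897 and 648 FPKM in chow KO, 482, 376, 267 and 478 FPKM in HFD WT and 250.3, 257, 333 and 648 FPKM in HFD KO. HFD WT lay below chow WT, while HFD KO replicate 4 stood inside the chow KO range. Gpx4 differed by -0.58 (SE 0.32, adjusted p = 0.155) and -0.69 (SE 0.32, adjusted p = 0.0995). The KO-labelled difference passed without chow KO replicate 2 (-0.90, adjusted p = 0.0339) or HFD KO replicate 4 (-0.99, adjusted p = 0.0109), and without all 3 libraries with epididymal RNA (-1.15, adjusted p = 0.00681). In WT-labelled mice it passed without the 2 libraries with the most epididymal RNA (adjusted p = 0.0454). Of its 100-base windows, 48.4% also occur in pseudogenes, so the value is uncertain. Gpx1 stood at 863, 914, 839 and 945 FPKM in chow WT, 577, 385, 626 and 686 FPKM in chow KO, 507, 1020.4, 962 and 613 FPKM in HFD WT and 884, 689, 658 and 549 FPKM in HFD KO. HFD libraries lay on both sides of chow WT, and the differences were -0.26 (SE 0.24, adjusted p = 0.414) and 0.30 (SE 0.24, adjusted p = 0.340).

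Gpx7, a peroxidase of the endoplasmic reticulum, stood at 10.7, 12.3, 9.53 and 9.90 FPKM in chow WT, 5.92, 8.12, 6.45 and 7.78 FPKM in chow KO, 12.3, 11.7, 7.70 and 12.4 FPKM in HFD WT and 16.2, 8.27, 12.96 and 9.20 FPKM in HFD KO. HFD KO lay wholly above chow KO, which in turn lay below chow WT. Gpx7 rose by 0.62 (SE 0.19, adjusted p = 0.0203) in KO-labelled mice, where it differed by 0.032 (SE 0.19, adjusted p = 0.910) in WT-labelled mice. The call was lost without 1 of replicates 1 and 3 of chow KO and HFD KO (adjusted p from 0.0520 to 0.0737), and without the 3 libraries with epididymal RNA the rise was 1.02 (adjusted p = 0.00123). Gpx8, its relative in the same compartment, fell by 0.63 (SE 0.18, adjusted p = 0.0121) in WT-labelled mice and differed by -0.16 (SE 0.18, adjusted p = 0.503) in KO-labelled mice.

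Several mu class transferases were very high in single libraries, and these genes were picked after their values were seen, apart from Gstm1 and Gstm4. They lie together on chromosome 3, between 107895854 and 108045179. Gstm7 reached 240.04 FPKM in chow KO replicate 2, and in HFD KO replicate 4 it reached 569 FPKM. It was 0.95 to 11.4 FPKM in the 13 libraries whose epididymis and testis markers summed to no more than 47.3 FPKM, and 5.49 FPKM in HFD KO replicate 2. Gstm6 was 74.3 and 103 FPKM in those 2 libraries, and 0.44 to 5.56 FPKM in the same 13. Gstm5 was 459 and 109 FPKM, against 9.73 to 54.7 FPKM. The high libraries are the 2 with the most epididymal RNA, and Gstm2, at 348 and 430 FPKM, was also highest there. Gpx6, with 5.97 FPKM in chow KO replicate 2 and at most 0.07 FPKM elsewhere, moved with them. Whether this RNA came from epididymal cells was not tested.

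Gstm1, the most abundant mu class gene, stood at 439.6, 429.8, 421 and 391 FPKM in chow WT, 278, 452, 423 and 308 FPKM in chow KO, 544, 247, 269 and 234 FPKM in HFD WT and 173, 895, 204 and 492 FPKM in HFD KO. HFD WT replicate 1 and HFD KO replicate 2 stood above their groups, and the differences were -0.47 (SE 0.42, adjusted p = 0.395) and -0.019 (SE 0.42, adjusted p = 0.977). The sign in KO-labelled mice turned without chow KO replicate 2 or 3, HFD KO replicate 1 or 3, and with a constant sum, and without the 3 libraries with epididymal RNA the difference was -0.82 and passed (adjusted p = 0.0434). Gstm4 stood at 21.4, 24.3, 19.99 and 22.3 FPKM in chow WT, 14.1, 11.4, 17.2 and 15.5 FPKM in chow KO, 13.02, 8.33, 6.91 and 8.08 FPKM in HFD WT and 6.06, 11.4, 7.12 and 22.3 FPKM in HFD KO. HFD WT lay below chow WT, and HFD KO replicate 4 above the whole chow KO group. Gstm4 fell by 1.22 (SE 0.29, adjusted p = 0.00416) in WT-labelled mice and differed by -0.44 (SE 0.29, adjusted p = 0.242) in KO-labelled mice.

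**Figure D4:**
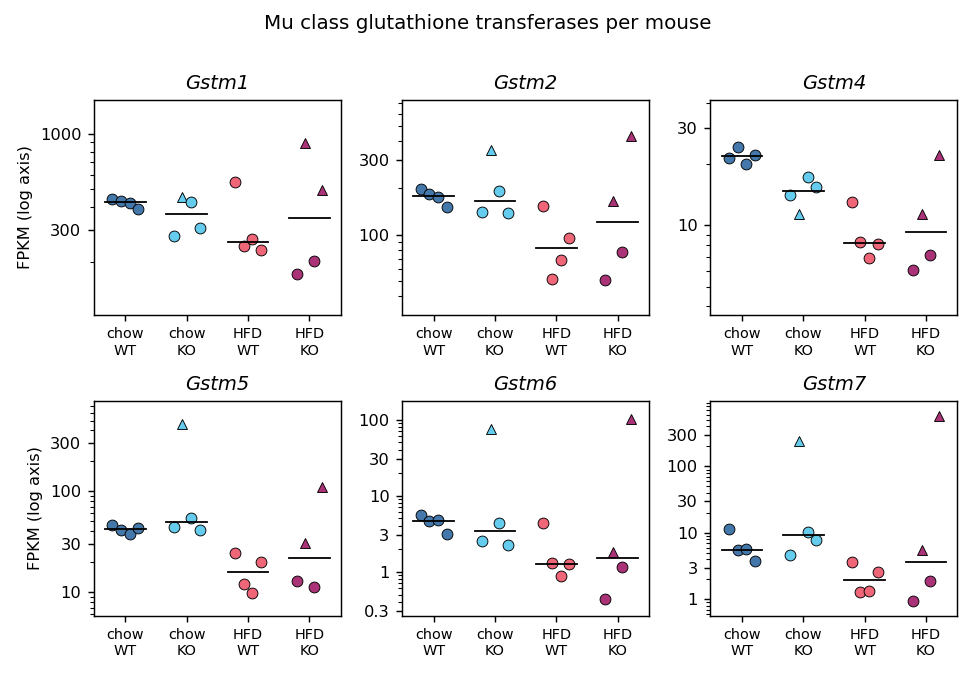
FPKM (log axis) of 6 mu class transferases in each of the 16 mice, in groups by diet and genotype label and left to right by replicate number, with a line at the median of the 4 libraries and triangles for the 3 libraries with epididymal RNA. Gstm7 reaches 240.04 FPKM in the second chow KO library and 569 FPKM in the fourth HFD KO library, and Gstm5 and Gstm6 are highest in the same 2 libraries.

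Between genotype labels no member passed the threshold. On chow, where 1.41% of all tested genes differed (limma), 0.426% higher and 0.979% lower in KO-labelled mice, 0 of 42 members passed and 3 had an unadjusted p under 0.05, the smallest adjusted p being 0.218. On HFD, where 0.0316% of all genes differed, 0.0237% higher and 0.00789% lower, 0 passed and 7 had an unadjusted p under 0.05, the smallest adjusted p being 0.302. For the interaction, which asks whether the diet difference depended on the label, 0.292% of all genes passed, 0.253% with a positive and 0.0395% with a negative term, against 0 members, with 3 at an unadjusted p under 0.05 and a smallest adjusted p of 0.463. These zero counts held with each scaling, filter, pseudocount, block or left-out library that was tried. The calls that were made under 1 label only, such as those of Gclm and Gpx3, are thus not shown to differ between labels.

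A few members did not overlap between labels, without passing. The share of all tested genes that do not overlap was not computed, so these members are not shown to stand out. On chow, Gpx1 was lower in every KO-labelled library than in any WT-labelled one, with 568 ± 130.3 FPKM against 890.03 ± 48.1 FPKM (SD, n = 4), a difference of -0.68 (SE 0.24, adjusted p = 0.218). Gpx7 (-0.53, SE 0.19, adjusted p = 0.226) and Gstm4 (-0.57, SE 0.29, adjusted p = 0.387) were also lower without overlap, and Srxn1 (0.33, SE 0.41, adjusted p = 0.766) and Txnrd1 (0.52, SE 0.38, adjusted p = 0.557) higher. On HFD, Gsta4 (2.09, SE 0.67, adjusted p = 0.315) and Gpx3 (1.62, SE 0.58, adjusted p = 0.348) were higher in every KO-labelled library. Each size rests on 1 library: without HFD KO replicate 2 the Gsta4 difference was 1.08 (adjusted p = 0.251), and without HFD KO replicate 4 that of Gpx3 was 0.74 (adjusted p = 0.378). Nqo1 overlapped, with 4.21 to 16.6 FPKM in HFD KO and 1.04 to 6.71 FPKM in HFD WT. It had the smallest adjusted p of the members, at 1.37 (SE 0.39, adjusted p = 0.302). Gclc followed and overlapped too, with 14.4 to 24.4 FPKM in HFD KO and 6.56 to 19.6 FPKM in HFD WT. Its difference was 0.94 (SE 0.29, adjusted p = 0.309).

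Within the high-fat diet, 3 libraries of both labels shared a place in the order for some members, a pattern noticed in the values and therefore given without a test. HFD WT replicate 3 and HFD KO replicates 1 and 3 were the highest 3 of the 8 HFD libraries for 7 of the 42 members, 16.7%, against 6.21% of all tested genes. These were Gclc, Gclm, Gsr, Nfe2l2, Prdx1, Srxn1 and Txnrd1. The 3 libraries were picked from the values of these members, so the gap to the share of all genes does not count as a result. The same 3 libraries were the lowest for another 7 members, against 5.96% of all genes: Gstk1, Gstm4, Gstm6, Gsto2, Mgst3, Prdx3 and Txnrd2. Of the 17 other NRF2 targets, 6 had these 3 libraries on top (Akr1b8, Blvrb, Cbr3, Fth1, Hmox1 and Sqstm1) and 0 had them lowest. Of the 11 NRF2 partners and competitors, 2 had them on top (Bach1 and Mafg) and Maff had them lowest. Over all 84 tested genes of the pathway lists other than the members, the counts were 13 on top, 15.5%, and 10 lowest, 11.9%. The summed macrophage markers were 14205, 11975 and 9398 FPKM in these 3 libraries, and 12291 FPKM in HFD WT replicate 2, which was not among them. Adipocyte markers summed to 7896, 4972 and 11070.4 FPKM in the 3, and their part in the order was not tested.

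Other genes of the pathway were followed by list. The counts of every list below are to be read beside those of all tested genes. Of these, 24.6% rose and 17.2% fell in WT-labelled mice, and 23.5% rose and 15.3% fell in KO-labelled mice. Of 17 other NRF2 target genes, 8 rose and 2 fell in WT-labelled and 11 rose and 1 fell in KO-labelled mice, with medians of 0.70 and 0.90. Hmox1, heme oxygenase 1, stood at 24.5, 26.9, 25.9 and 24.1 FPKM in chow WT, 24.4, 24.96, 20.1 and 20.1 FPKM in chow KO, 60.7, 117, 632 and 129.6 FPKM in HFD WT and 951, 173, 704 and 80.1 FPKM in HFD KO. Every HFD library exceeded every chow library, and the rise was 2.58 (SE 0.70, adjusted p = 0.00935) and 3.75 (SE 0.70, adjusted p = 0.00123). Akr1b8, an aldehyde reductase, stood at 9.24, 10.4, 8.19 and 9.19 FPKM in chow WT, 10.5, 9.03, 9.26 and 8.10 FPKM in chow KO, 23.8, 61.3, 377 and 53.6 FPKM in HFD WT and 214, 97.4, 174 and 34.1 FPKM in HFD KO. It too did not overlap between diets, and it rose by 2.88 (SE 0.65, adjusted p = 0.00300) and 3.39 (SE 0.65, adjusted p = 0.00138). Cdkn1a, the cell cycle inhibitor p21, which other pathways also induce, rose by 2.14 and 2.77, and the stress cytokine gene Gdf15 by 2.56 and 3.17. Trp53inp1 fell by 0.95 (SE 0.15, adjusted p = 0.000339) in WT-labelled mice, and was lower in KO-labelled than in WT-labelled mice on chow (-0.83, SE 0.15, adjusted p = 0.0159).

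Among 14 thioredoxins, glutaredoxins and related genes, 2 rose and 7 fell in WT-labelled and 1 rose and 4 fell in KO-labelled mice, with medians of -0.45 and -0.23. Txn1, the cytosolic thioredoxin, differed by 0.24 (SE 0.32, adjusted p = 0.578) and -0.095 (SE 0.32, adjusted p = 0.840), while the mitochondrial Txn2 fell by 0.46 and 0.57 on the log2 scale. Glrx2 fell by 0.80 and 0.85 and Glrx3 by 1.28 and 1.10. Txnip, which binds and inhibits thioredoxin, stood at 1353, 1435, 1309 and 1501 FPKM in chow WT, 313, 301, 695 and 934 FPKM in chow KO, 407, 323, 314 and 394 FPKM in HFD WT and 303, 495, 382 and 509 FPKM in HFD KO. Only chow WT was above 1000 FPKM. Txnip fell by 1.97 (SE 0.31, adjusted p = 0.000271) with diet in WT-labelled mice, differed by -0.27 (SE 0.31, adjusted p = 0.518) in KO-labelled mice, and was lower in KO-labelled than in WT-labelled mice on chow (-1.49, SE 0.31, adjusted p = 0.0272).

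Of 5 superoxide dismutase and catalase genes, 1 rose and 3 fell in WT-labelled and 2 fell in KO-labelled mice. Sod1, the cytosolic enzyme, fell by 1.18 (SE 0.17, adjusted p = 0.000169) and 1.07 (SE 0.17, adjusted p = 0.000485), with its copper chaperone Ccs (-0.51 and -0.41). The second call of Ccs was lost without 1 of chow WT replicates 2, 3 and 4, chow KO replicates 2 and 4, HFD WT replicate 4 and HFD KO replicates 1, 2 and 3, and was -0.28 (adjusted p = 0.135) without chow KO replicate 4. Sod2, of mitochondria, rose by 0.81 (SE 0.20, adjusted p = 0.00572) in WT-labelled mice and differed by 0.020 (SE 0.20, adjusted p = 0.948) in KO-labelled mice. Cat, catalase, fell by 1.19 (SE 0.24, adjusted p = 0.00147) in WT-labelled mice and differed by -0.49 (SE 0.24, adjusted p = 0.122) in KO-labelled mice, and the secreted Sod3 differed by -0.20 (SE 0.33, adjusted p = 0.656) and 0.50 (SE 0.33, adjusted p = 0.242). Of 6 genes of selenoprotein synthesis, Sephs2, which makes the selenium donor, fell by 1.31 and 0.94, Secisbp2, which reads the selenocysteine signal, rose by 0.36 and 0.31, and Selenop, the selenium carrier, rose by 0.92 (SE 0.26, adjusted p = 0.0115) in KO-labelled mice. For Secisbp2 the WT-labelled call was lost without chow WT replicate 3 or 4 or HFD WT replicate 2 (adjusted p up to 0.0710), and the KO-labelled call was kept only without chow KO replicate 1, chow KO replicate 2 or HFD WT replicate 1 (adjusted p up to 0.141 otherwise). The latter was lost with the replicate block as well (adjusted p = 0.0606).

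Glutathione supply, breakdown and export took in 18 genes, of which 1 rose and 4 fell in WT-labelled and 2 rose and 6 fell in KO-labelled mice. The medians were -0.39 and -0.20. The share that fell lay near the 17.2% of all genes in WT-labelled mice and above the 15.3% in KO-labelled mice. The share that rose lay below the 24.6% and 23.5% of all genes. Slc7a11, the cystine importer, stood at 0.18, 0.14, 0.11 and 0.09 FPKM in chow WT, 0.09, 4.03, 0.07 and 0.01 FPKM in chow KO, 0.27, 0.26, 3.05 and 0.23 FPKM in HFD WT and 9.03, 0.98, 6.07 and 3.42 FPKM in HFD KO. It reached 3 FPKM in HFD WT replicate 3, HFD KO replicates 1, 3 and 4 and chow KO replicate 2 alone. Slc7a11 rose by 1.68 (SE 0.56, adjusted p = 0.0279) in KO-labelled mice, and differed by 0.57 (SE 0.56, adjusted p = 0.435) in WT-labelled mice. The rise was lost without 1 of chow KO replicates 1, 3 and 4 and HFD KO replicates 1 and 3 (adjusted p from 0.0737 to 0.0941). Anpep, a peptidase of glutathione breakdown that is also a surface marker of myeloid cells, rose by 3.55 and 3.70. Glo1 and Hagh, which clear methylglyoxal with glutathione, fell by 0.72 and 0.59 for Glo1 and by 0.70 and 0.92 for Hagh. Chac1, which degrades glutathione, fell by 2.17 (SE 0.23, adjusted p = 1.77e-05) in WT-labelled mice, and Chac2 by 0.83 (SE 0.16, adjusted p = 0.00139) in KO-labelled mice.

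NADPH, which both systems spend, was followed through 13 listed genes of its making and of linked pathways. Of these, 2 rose and 2 fell in WT-labelled and 1 rose and 3 fell in KO-labelled mice. The share of rises was below that of all genes, but only by a few genes. Idh2 fell by 0.77 and 0.51 on the log2 scale, and Pgd, of the pentose phosphate path, rose by 1.22 (SE 0.21, adjusted p = 0.000529) in WT-labelled mice and differed by 0.24 (SE 0.21, adjusted p = 0.393) in KO-labelled mice. G6pdx (0.13 and 0.35) and Me1 (0.21 and -1.13) did not pass. Of the listed folate enzymes, Mthfd2 rose by 1.53 (SE 0.43, adjusted p = 0.0115) and Aldh1l1 fell by 1.37 (SE 0.48, adjusted p = 0.0338) in KO-labelled mice. Mthfd2 was 0.98 without HFD KO replicate 4, and the fall of Aldh1l1 was lost without 1 of chow KO replicates 3 and 4 and HFD KO replicates 1 and 2 (adjusted p up to 0.119). Nnt, the mitochondrial transhydrogenase, stood at 25.9, 25.7, 28.4 and 29.2 FPKM in chow WT, 8.56, 8.05, 6.91 and 7.12 FPKM in chow KO, 7.75, 10.6, 9.17 and 8.85 FPKM in HFD WT and 9.41, 6.50, 7.86 and 8.57 FPKM in HFD KO. Chow WT was apart from the 12 other libraries, so that its difference was -1.49 (SE 0.12, adjusted p = 2.21e-06) with diet in WT-labelled mice, 0.063 (SE 0.12, adjusted p = 0.706) in KO-labelled mice and -1.71 (SE 0.12, adjusted p = 2.69e-06) between labels on chow. Chac1 (-1.67, SE 0.23, adjusted p = 0.00220) and the NRF2 partner Mafk (-1.08, SE 0.18, adjusted p = 0.00661) were lower in chow KO than in chow WT as well, and for both, as for Nnt and Txnip, every chow WT library exceeded all 12 others. The diet differences of these 4 genes in WT-labelled mice thus rest on chow WT libraries that also differed from chow KO. Of 11 NRF2 partners and competitors, 2 rose and 2 fell in WT-labelled and 2 rose and 1 fell in KO-labelled mice. In so short a list these shares lie near those of all genes, of which 24.6% and 23.5% rose. Bach1, which competes with NRF2, rose by 0.68 (SE 0.26, adjusted p = 0.0478) and 1.004 (SE 0.26, adjusted p = 0.00747), Maff by 0.50 and 0.67, and Btrc fell by 0.54 and 0.41. The WT-labelled rise of Bach1 was lost without any 1 chow library, HFD WT replicate 2 or 3, or HFD KO replicate 2 or 3, and it was 0.49 without HFD WT replicate 3 (adjusted p = 0.161). It was also lost with the replicate block (adjusted p = 0.0709), and under median-of-ratios (0.0610) and quantile scaling (0.0851). The KO-labelled rise of Maff was 0.22 (adjusted p = 0.247) without the 3 libraries with epididymal RNA and 0.47 (0.0559) without the 2 with the most. For Maff the WT-labelled call was lost without 1 of chow WT replicates 1, 2 and 3, chow KO replicates 1, 3 and 4 and HFD WT replicates 1, 2 and 4 (adjusted p up to 0.109), and for Btrc the KO-labelled call without chow KO replicate 2, HFD KO replicate 1 or HFD KO replicate 3 (adjusted p up to 0.0997).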

How the data were processed

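RNA-seq was done on eWAT of 16 mice, 4 per group. Per the labels, libraries were made from total RNA, and the submitters' processing notes name STAR 2.7 and the builds GRCm38.p6 and mm10. The authors deposited FPKM values per gene; the tool that made them, its annotation and strand setting are not given in the sources. The 14408 circular RNA entries and 1 blank entry were left out. Values were turned into log2(FPKM + 1), filtered (at least 1 FPKM in at least 4 libraries, 12667 genes) and entered in limma 3.58.1 under R 4.3.3 (4 group means, variance trend, Benjamini-Hochberg adjustment over all tested genes, threshold 0.05). The code was tested on simulated data. Fold changes on this scale understate the change of low genes. The members, pathway and marker lists were chosen with earlier results of these data known. Values in every library were given for members past the threshold in a genotype comparison, for up to 10 rises and 10 falls per diet comparison and for 22 fixed members. Of other lists, a few genes with the smallest p and 11 fixed ones were named. Only Hmox1, Akr1b8, Txnip, Slc7a11 and Nnt among these were given with values in every library. Other scalings, pseudocounts, filters, a replicate block and left-out libraries were tried. The labels do not say whether replicate numbers pair mice, and the main fit used no pairing. No litter or cage is given, so p-values measure the spread between these mice.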

Additional observations from a re-analysis of the deposited data

Results flagged for a closer look

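Of 124 gene and group combinations of 4 libraries among the 31 named members, 13 (10.5%) held a library whose gap to its nearest neighbour exceeded Dixon's 95% limit as a share of the group's range. The limit lets about 1 in 20 groups pass if values are independent and normally spread. Genes of the same libraries are not independent, so the 10.5% cannot be set against that rate. HFD WT replicate 3 held 7 of them. It was high for Gclc (19.57 FPKM, next highest 8.57 FPKM), Gclm (81.63 against 20.19), Gsr (67.36 against 21.13), Prdx1 (1798.78 against 455.14), Srxn1 (115.77 against 29.32) and Txnrd1 (111.19 against 38.57), and low for Gpx7 (7.70 against at least 11.67). These are genes of 1 library and not separate observations. Gclm was high in chow KO replicate 2 (38.71 FPKM against 15.56), a library with epididymal RNA. In HFD KO replicate 4, which also held such RNA, Gpx3 (3186.62 against 363.9) and Gsta3 (78.83 against 20.78) were high. Gsta4 was high in HFD KO replicate 2 (143.61 against 12.18), Gss in HFD KO replicate 1 (11.34 against 9.10) and Gstm1 in HFD WT replicate 1 (543.52 against 269.37). The causes were not tested.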

How the results depend on the processing

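The counts of members changed with diet, 19 in WT-labelled and 18 in KO-labelled mice, lay at 17 to 20 and 16 to 19 under 3 other scalings, pseudocounts of 0.1 and 0.5, a replicate block, no variance trend, no filter and a filter on mean FPKM of 5. Leaving out each library in turn gave 17 to 22 and 12 to 28. Without the 3 libraries with epididymal RNA 32 members changed in KO-labelled mice, and 29 without the 2 with most of it. Without the filter Prdx1 and Prdx6 in WT-labelled and Gclm, Gstt3 and Nqo1 in KO-labelled mice no longer passed (adjusted p from 0.0543 to 0.0784). Counts between labels and for the interaction stayed at 0 in all of these. Over all genes, leaving out each library gave 4163 to 5801 changed genes with diet in WT-labelled and 3703 to 5592 in KO-labelled mice, 55 to 230 between labels on chow (178 with all), 3 to 10 on HFD (4 with all) and 12 to 46 for the interaction (37 with all). The HFD count was 8 with median-of-ratios scaling, 8 with quantile normalization, 0 with a mean FPKM of at least 5, where fewer genes are tested, and 19 without the 3 libraries. With the replicate block 18 members changed with diet under each label, 115 genes differed between labels on chow and 18 for the interaction. Same-numbered libraries mostly did not deviate together (8 of 24 pairs had r over 0.1, and 4 of 16 libraries matched their own number best). This check cannot show whether mice shared a litter, cage or batch. The share of all diet calls that were higher, 58.8% in WT-labelled and 60.5% in KO-labelled mice, became 51.4% and 49.9% with median-of-ratios scaling, 66.6% and 63.5% with a constant sum and 45.8% and 42.3% with quantile normalization. The last shifted the all-gene median by -0.10 and -0.15. Differences near 0 that changed sign were those of Gclc in WT-labelled mice (-0.017 with median-of-ratios, -0.074 with quantile, -0.27 to 0.21 without 1 library), Gsr (0.042 with a constant sum, -0.48 to 0.16) and Nqo1 (0.022 with a constant sum, -0.44 to 0.20) in WT-labelled mice, and Gss (-0.035 with median-of-ratios, -0.090 with quantile, -0.048 to 0.13) and Gstm1 (0.0067 with a constant sum, -0.47 to 0.32) in KO-labelled mice. Why these values moved was not tested. FPKM give no depth, so the counting error of members near the filter, such as Gsto2, Nqo1 and Gstm6, is unknown.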
